A study of Mus musculus with 6 samples.

Results

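Fatty acids are burnt in mitochondria and peroxisomes and built in the cytosol, and 37 genes of these routes were followed here in cells of the adult mouse subventricular zone (SVZ), the niche of neural stem cells along the lateral ventricles. The genes were taken by symbol from an RNA-seq table of 55487 genes, each symbol matched 1 row, and all 37 were among the 17278 genes tested. They comprise 17 genes of fatty acid oxidation, 6 of synthesis, 7 of desaturation and elongation, 2 fatty acid binding proteins and 5 acyl-CoA synthetases. Values are normalized counts, which are reads per gene scaled by 1 factor per library.

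TKO mice were Rb(F/F);p107(-/-);p130(F/F), and the THC mice set against them were Rb(F/+);p107(+/-);p130(F/+), so that each of these retinoblastoma family genes was also altered on 1 allele in THC. All animals carried NestinCreERT2, a tamoxifen-inducible Cre recombinase under Nestin regulatory sequence, and an EYFP reporter at the R26 locus, on a mixed C57BL/6;Sv/129 background. Mice aged 6 to 10 weeks were gavaged with tamoxifen on 5 days, at a daily dose of 200 mg/kg. The SVZ of several mice was pooled 10 days after the last dose to reach at least 200000 YFP-positive cells per sample, so a sample is a sorted mixture of the cells that had recombined and their progeny. There were 3 TKO and 3 THC samples, called biological replicates by the submitters. A February batch held TKO 1 and THC 1, and a November batch held TKO 2, TKO 3, THC 2 and THC 3.

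In mitochondrial beta-oxidation, acyl-CoA synthetases activate a fatty acid, the carnitine shuttle carries it across the mitochondrial membranes, and acyl-CoA dehydrogenases, hydratases, hydroxyacyl-CoA dehydrogenases and thiolases then shorten it by repeated cycles. In synthesis, ATP citrate lyase supplies acetyl-CoA, acetyl-CoA carboxylases make malonyl-CoA, which also inhibits carnitine palmitoyltransferase 1, and fatty acid synthase builds the chain that elongases and desaturases then modify. In the adult mouse brain, fatty acid oxidation is known as a feature of quiescent neural stem cells and synthesis through fatty acid synthase as a need of proliferating progenitors.

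Library depth ran from 15536084 to 16961817 reads in genes. Rbl1, the gene of p107, had a normalized count of 24.9 ± 14.9 in TKO and 554 ± 80.5 in THC (SD, n = 3 each), and fell (log2 change -4.56, SE 0.31, adjusted p = 2.3e-06), so that all 6 libraries fitted their p107 label. Rb1 had a log2 change of 0.82 and Rbl2 one of -0.13, but counts over whole genes do not check their floxed alleles. In the THC group, THC 3 had the lowest value for 32 of the 37 fatty acid genes, whereas it was the lowest THC library for 35.4% of all genes tested. The summed level of 15 astrocyte and quiescent stem cell markers was 150156 to 197353 in TKO and 174097 to 300968 in THC, with THC 3 the lowest and inside the TKO range; of these markers 8 fell, 1 rose and 6 were not called. The 10 proliferation markers summed to 87614 to 101978 in TKO and 27644 to 42929 in THC, and all 10 rose. The 10 oligodendrocyte markers summed to 17433 to 28313 in TKO and 91913 to 101540.0 in THC, and all 10 fell. The 11 neuroblast markers summed to 20395 to 28385 in TKO and 30672 to 42552 in THC, with 6 lower and none higher, and the 10 endothelial and mural markers to 4769.5 to 7675 in TKO and 12153 to 21249 in THC, with 9 lower and none higher. The 10 microglia markers (4 higher, none lower) summed to 1402 to 7225 in TKO and 1008 to 4716 in THC, with the highest value of each genotype in February, and the 10 ependymal markers (1 higher and 3 lower of 9 tested) to 6695 to 8882 in TKO and 4935 to 15527 in THC. No marker was at 0 in any library except the ependymal gene Mia. In such pools, fewer cells of a type and less RNA per cell cannot be told apart, and the part of these cell markers in the results that follow was not tested.

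**Figure D1:**
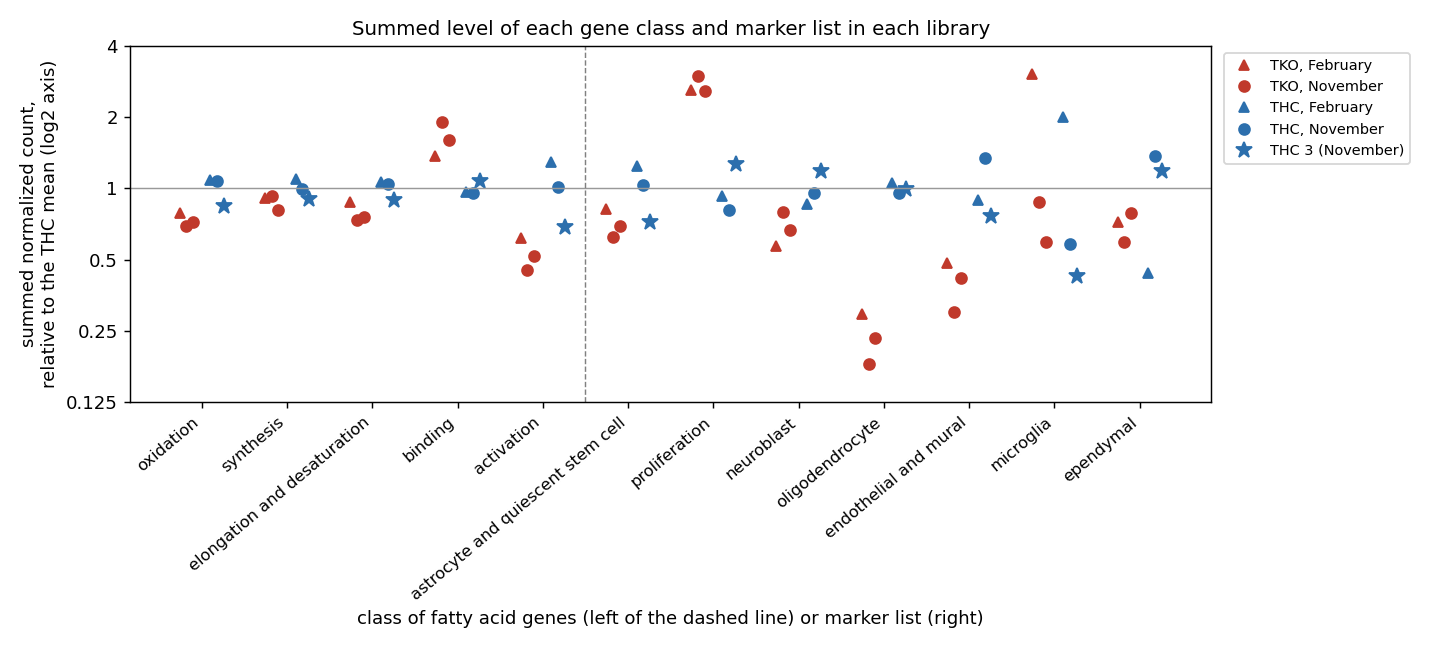
Summed normalized count of each class of fatty acid genes (left of the dashed line) and of each marker list (right), per library and relative to the mean of the 3 THC libraries, on a log2 axis. Triangles are February and circles November libraries, TKO left and THC right, and THC 3 is a star. The oxidation, activation, and elongation and desaturation classes lie below the THC libraries in all 3 TKO libraries, the binding class lies above them, and the synthesis class overlaps. A sum follows the genes of highest count most. These are Scd2, which was not called, in elongation and desaturation, and Acsl3, whose groups overlap, in activation.

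More of the fatty acid genes were lower than higher in TKO. Of the 37 genes, 16 fell and 4 rose at an adjusted p under 0.05 in a limma model of genotype and batch fitted over all genes, and 17 were not called. Over all genes tested, 27.9% were called, 13.6% lower and 14.3% higher, while 54.1% of the fatty acid genes were called. The median log2 change was -0.34 (-0.37 in the February pair, -0.29 in November), against -0.000319 for all genes tested. The 3 TKO values lay wholly below the 3 THC values for 18 fatty acid genes and wholly above for 4; over all genes tested, 38.9% did not overlap, 19.5% wholly below and 19.4% wholly above. Without THC 3, 16 genes fell and 4 rose, but with Acly no longer called (-0.44, adjusted p = 0.052) and Cpt2 called lower (-0.52, adjusted p = 0.033). The 4 that rose were Fabp7, Acsl5, Thrsp and Cpt1c, 1 from each class other than desaturation and elongation.

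The promoter windows of the 4 genes that rose are shown because these genes moved against the rest of the set. Each runs from 250 bases before to 50 bases after a transcription start, on the strand of the gene, in GRCm38.p6 from RefSeq, and capitals mark CCAAT or its reverse complement ATTGG, the box bound by NF-Y.
Fabp7 (chr10:57784673-57784972, plus strand): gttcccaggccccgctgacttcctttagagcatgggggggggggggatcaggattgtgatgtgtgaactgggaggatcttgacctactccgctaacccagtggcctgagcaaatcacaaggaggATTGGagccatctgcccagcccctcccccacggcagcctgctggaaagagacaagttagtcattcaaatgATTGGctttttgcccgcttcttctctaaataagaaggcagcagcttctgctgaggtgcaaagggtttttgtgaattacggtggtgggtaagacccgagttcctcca
Acsl5 (chr19:55253119-55253418, plus strand): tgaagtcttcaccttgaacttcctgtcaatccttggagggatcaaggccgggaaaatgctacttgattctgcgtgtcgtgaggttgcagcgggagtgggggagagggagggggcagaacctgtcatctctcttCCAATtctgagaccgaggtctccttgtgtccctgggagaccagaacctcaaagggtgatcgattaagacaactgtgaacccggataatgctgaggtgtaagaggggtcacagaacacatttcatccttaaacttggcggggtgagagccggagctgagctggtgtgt
Thrsp (chr7:97417501-97417800, minus strand): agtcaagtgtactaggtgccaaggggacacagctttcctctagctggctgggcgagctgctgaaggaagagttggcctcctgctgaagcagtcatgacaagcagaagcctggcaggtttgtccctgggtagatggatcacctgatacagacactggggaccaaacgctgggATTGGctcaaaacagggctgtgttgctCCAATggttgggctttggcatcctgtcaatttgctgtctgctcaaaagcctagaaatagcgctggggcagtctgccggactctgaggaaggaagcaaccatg
Cpt1c (chr7:44974802-44975101, minus strand): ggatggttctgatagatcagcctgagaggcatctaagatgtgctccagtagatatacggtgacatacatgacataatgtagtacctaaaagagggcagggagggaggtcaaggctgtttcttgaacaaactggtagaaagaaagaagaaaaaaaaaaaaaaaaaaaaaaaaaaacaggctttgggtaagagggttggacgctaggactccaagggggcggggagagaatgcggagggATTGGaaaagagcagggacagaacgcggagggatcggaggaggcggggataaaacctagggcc
All 4 windows held the box, with 2 copies in Fabp7 and Thrsp and 1 in Acsl5 and Cpt1c. Windows were matched for 31 of the 37 genes (37 windows, since some genes have several starts). The box was present for 4 of 4 genes that rose, 7 of 14 that fell and 5 of 13 that were not called, against 41.1% of all genes with a window and 37.4% of all 32851 windows. The other motifs searched, on both strands, were the E2F sites TTTCCCGC (in 1.07% of all windows) and TTTGGCGC (0.514%) and the PPAR response element, a direct repeat spaced by 1 base (0.0396%), found in no window of these genes. The sterol regulatory element TCACNCCAC (1.24% of all windows) was found in Acsl1 alone, and the E-box CACGTG (7.15%) in Elovl5 alone. No match means only that these letters are not in these windows.

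Most of the mitochondrial beta-oxidation enzymes among the 37 genes were lower in TKO. Of the 10 genes of the dehydrogenase, hydratase, thiolase and auxiliary steps, 7 fell, none rose and 3 were not called. That is 70% called, against 27.9% over all genes tested. Their median log2 change was -0.47 (-0.46 in the February pair, -0.52 in November). Their summed normalized count was 11270.4 to 12570.5 in TKO and 14468 to 18634 in THC. The acyl-CoA dehydrogenases catalyse the opening step and differ in the chain length they accept.

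Acads, the short-chain dehydrogenase (chromosome 5, 115110299 to 115119346, GRCm38, as for all positions here), had normalized counts of 151, 138 and 149.7 in TKO 1, 2 and 3, against 308, 379.6 and 256 in THC 1, 2 and 3. No TKO value reached the THC range. The TKO level was 47.2% of the THC level (log2 change -1.08, SE 0.20, adjusted p = 0.002). Acadvl, the very-long-chain enzyme bound to the inner membrane (chromosome 11, 70010183 to 70015411), had 1005, 859 and 888 in TKO 1, 2 and 3, against 1917, 1916 and 1376 in THC 1, 2 and 3. These groups did not overlap either, and the TKO level was 53.3% of THC (log2 change -0.91, SE 0.14, adjusted p = 0.00053). Exons of Dvl2 on the opposite strand overlap 42.9% of the annotated exon length of Acadvl, and since the libraries keep no strand, reads there cannot be assigned with certainty; Dvl2 itself averaged 623 in TKO and 493 in THC. Acadm, the medium-chain enzyme (chromosome 3, 153922357 to 153944632), had 1564, 1448 and 1574 in TKO 1, 2 and 3, against 2121, 2422 and 1998 in THC 1, 2 and 3. It fell to 70.3% of the THC level (log2 change -0.51, SE 0.13, adjusted p = 0.0097). Acadl, the long-chain enzyme, was not called: it had 1883, 1807 and 1952 in the TKO libraries and 2422, 2469 and 1597 in the THC libraries, with THC 3 below all TKO libraries. Its log2 change was -0.17 (standard error 0.16, adjusted p = 0.47), with a 95% interval of -0.52 to 0.18.

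The later steps of the cycle were uneven. Acaa2, the mitochondrial thiolase that releases acetyl-CoA, had 1330.2, 1113 and 1121 in TKO 1, 2 and 3, against 2488, 2398 and 1809 in THC 1, 2 and 3. It was lower in every TKO library, at 53.6% of THC (log2 change -0.90, SE 0.13, adjusted p = 0.00036), with -0.90 in the February pair and -0.90 in November. Hadh, the hydroxyacyl-CoA dehydrogenase of shorter chains, had 1075, 999 and 941 in TKO 1, 2 and 3, against 1423, 1555 and 1119 in THC 1, 2 and 3. The groups did not overlap, but the gap between TKO 1 and THC 3 was small, and the fall was modest (log2 change -0.43, SE 0.14, adjusted p = 0.04). That call was lost without TKO 1 (-0.44, adjusted p = 0.097), TKO 2 (-0.45, adjusted p = 0.084), TKO 3 (-0.40, adjusted p = 0.12), THC 1 (-0.44, adjusted p = 0.099) or THC 2 (-0.29, adjusted p = 0.18).

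Hadha and Hadhb encode the alpha and beta subunits of the mitochondrial trifunctional protein, which joins hydratase, dehydrogenase and thiolase activities for long chains. They lie head to head on chromosome 5 with annotated starts 86 bases apart, so their promoter windows share 228 bases, shown in capitals in the Hadhb window because the genes are read from the same stretch in opposite directions.
Hadhb (chr5:30155003-30155302, plus strand): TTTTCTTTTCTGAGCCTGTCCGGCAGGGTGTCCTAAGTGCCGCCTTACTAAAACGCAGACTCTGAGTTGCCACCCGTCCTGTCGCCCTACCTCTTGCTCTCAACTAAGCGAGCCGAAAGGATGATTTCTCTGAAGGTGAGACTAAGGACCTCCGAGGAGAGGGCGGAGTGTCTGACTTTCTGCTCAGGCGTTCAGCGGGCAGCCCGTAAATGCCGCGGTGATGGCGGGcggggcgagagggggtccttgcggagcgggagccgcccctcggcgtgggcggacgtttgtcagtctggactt
Hadhb had 3152, 2446 and 2526 in TKO 1, 2 and 3, against 3866, 3833 and 3214 in THC 1, 2 and 3, with all TKO values below all THC values (log2 change -0.43, SE 0.13, adjusted p = 0.024). Without TKO 1 (-0.50, adjusted p = 0.051), TKO 2 (-0.40, adjusted p = 0.094), TKO 3 (-0.42, adjusted p = 0.067), THC 1 (-0.50, adjusted p = 0.051) or THC 2 (-0.34, adjusted p = 0.1) it was not called. Hadha had 925, 845 and 806 in the TKO libraries and 847, 1052 and 924 in the THC libraries. These values overlapped, with a log2 change of -0.13 (standard error 0.14, adjusted p = 0.53) and a 95% interval of -0.42 to 0.17, which includes the change estimated for Hadhb. The difference between these 2 changes was not tested.

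Eci1 and Decr1 prepare unsaturated fatty acids for the cycle. Eci1, an enoyl-CoA isomerase (chromosome 17, 24426641 to 24439348), had 621, 714 and 701 in TKO 1, 2 and 3, against 1534, 1624 and 1319 in THC 1, 2 and 3. All TKO libraries were at about the same level, well below THC, and the TKO level was 45.6% of THC (log2 change -1.13, SE 0.13, adjusted p = 6.6e-05), the largest fall among the mitochondrial enzymes listed. Decr1, the dienoyl-CoA reductase, had 864, 903 and 1001 in the TKO libraries and 1207, 985 and 857 in the THC libraries, which overlapped. Its log2 change was -0.13 (standard error 0.15, adjusted p = 0.56), with -0.48 in the February pair and 0.05 in November.

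Of the peroxisomal enzymes, Acaa1a, a thiolase (chromosome 9, 119339676 to 119350299), had 778, 753 and 829 in TKO 1, 2 and 3, against 1674, 1586 and 1467 in THC 1, 2 and 3. It was lower in every TKO library, with means of 787 ± 38.4 in TKO and 1576 ± 104 in THC (SD, n = 3 each) and a 95% interval of -1.27 to -0.73 for the log2 change (adjusted p = 8.9e-05). Its close copy Acaa1b was far less abundant and rose, with 55.9 ± 6.18 in TKO and 14.4 ± 5.12 in THC (SD, n = 3 each; log2 change 1.93, SE 0.40, adjusted p = 0.0035), and reads shared by these copies may have been split between them. Exons of Myd88 on the opposite strand overlap 6.57% of the exon length of Acaa1a, with means of 414 in TKO and 254 in THC for Myd88. Acox3, an oxidase of branched-chain substrates, had 498, 420.2 and 462 in the TKO libraries and 574, 606 and 453 in the THC libraries and was not called (log2 change -0.24, SE 0.15, adjusted p = 0.29).

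Of the 3 carnitine shuttle genes among the 37, 1 rose and 2 were not called, a share called of 33.3% against 27.9% over all genes tested. Slc25a20, the shuttle carrier in the list of other oxidation genes, fell without overlap (log2 change -0.40, SE 0.12, adjusted p = 0.033). Cpt1a, the outer-membrane carnitine palmitoyltransferase that malonyl-CoA inhibits (chromosome 19, 3322334 to 3385733), had 2546, 1587 and 1736 in TKO 1, 2 and 3, against 2809.6, 2124 and 1558 in THC 1, 2 and 3. The spread within each genotype exceeded the difference between them, with the February library highest in each. Its log2 change was -0.14 (standard error 0.14, adjusted p = 0.51) and its 95% interval -0.44 to 0.16. Cpt2, the inner-membrane partner, had 588, 532 and 522 in TKO 1, 2 and 3, against 923, 704 and 592 in THC 1, 2 and 3. Its groups did not overlap, but it narrowly missed the threshold (log2 change -0.41, SE 0.14, adjusted p = 0.051); it was called without THC 3 (-0.52, adjusted p = 0.033). Cpt1c, the brain isoform, which resides in the endoplasmic reticulum, binds malonyl-CoA and has little transferase activity (chromosome 7, 44959372 to 44974851), had 1255, 1348 and 1357 in TKO 1, 2 and 3, against 952, 1008 and 848 in THC 1, 2 and 3. It rose in every TKO library, to 1.41-fold of THC (log2 change 0.50, SE 0.13, adjusted p = 0.011), and was the only one of the 17 oxidation genes that rose by this test. The antisense gene 6530437J22Rik overlaps 6.53% of its exon length and averaged 18.8 in TKO and 4.58 in THC, so reads of this overlap are uncertain.

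The nuclear receptors of fatty acids were the lowest of the oxidation genes in normalized count. Ppara, a receptor that drives oxidation genes in liver (chromosome 15, 85734983 to 85802819), had 27.3, 38.7 and 15.5 in TKO 1, 2 and 3, against 102, 59.5 and 55.5 in THC 1, 2 and 3. The TKO values were all below the THC values and spread widely, and the estimated level was 37.4% of THC (log2 change -1.42, SE 0.39, adjusted p = 0.018). At 16 to 102 reads per library this is the least precise of the called genes, and the call was lost without TKO 1 (-1.19, adjusted p = 0.079), TKO 3 (-1.12, adjusted p = 0.085) or THC 1 (-1.19, adjusted p = 0.1). Ppard had 29.3, 40.8 and 32.8 in the TKO libraries and 38.1, 42.5 and 27.3 in the THC libraries, which overlapped; its log2 change was -0.06, with a 95% interval of -0.85 to 0.74.

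**Figure D2:**
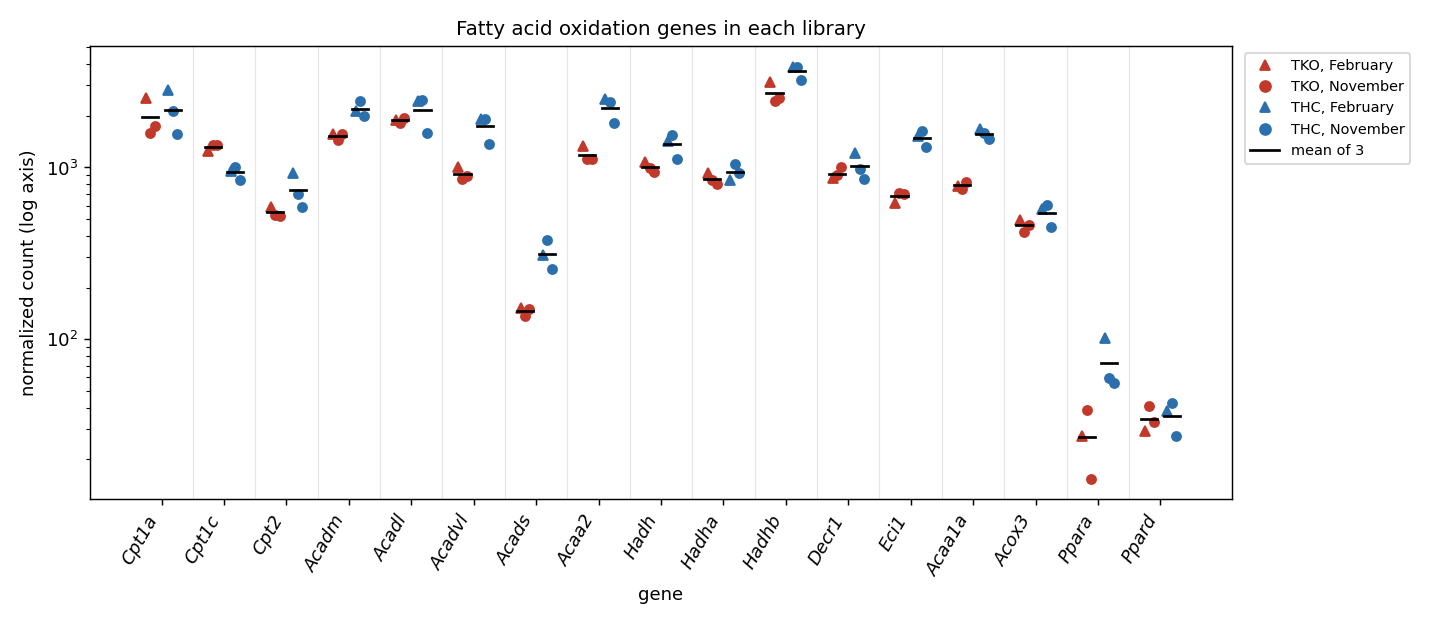
Normalized count of the 17 oxidation genes in each library, on a log axis, with TKO left of THC for each gene; triangles are February and circles November libraries, and bars are means of 3. The TKO points of Acads, Acadvl, Acaa2, Eci1 and Acaa1a lie together below all THC points, those of Cpt1c lie above, and those of Cpt1a, Acadl and Ppard overlap.

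The enzymes that build fatty acids did not pass the test, while genes that supply or regulate them moved in opposite directions. Of 6 synthesis genes, 2 fell, 1 rose and 3 were not called, a share called of 50% against 27.9% over all genes tested. Fasn, fatty acid synthase (chromosome 11, 120805846 to 120824547), had 2933, 2355 and 2142 in TKO 1, 2 and 3, against 3339.9, 2442 and 2239 in THC 1, 2 and 3. These ranges overlapped, with a log2 change of -0.10 (standard error 0.12, adjusted p = 0.58) and a 95% interval of -0.36 to 0.16. Acaca, the cytosolic acetyl-CoA carboxylase, had 844, 898 and 1052 in the TKO libraries and 854, 787 and 774 in the THC libraries, a log2 change of 0.21 (standard error 0.13, adjusted p = 0.29) with a 95% interval of -0.09 to 0.50. Acacb, the carboxylase at the mitochondrial membrane whose malonyl-CoA restrains oxidation, was at 118, 60.2 and 84.0 in the TKO libraries and 107, 108 and 52.5 in the THC libraries (log2 change -0.01, SE 0.31, adjusted p = 0.99).

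Acly, ATP citrate lyase, which makes cytosolic acetyl-CoA (chromosome 11, 100476353 to 100528000), had 3472, 3526 and 2717 in TKO 1, 2 and 3, against 4733, 4177 and 4857 in THC 1, 2 and 3. It was lower in every TKO library, at 70.2% of THC (log2 change -0.51, SE 0.14, adjusted p = 0.016), and was not called without TKO 1 (-0.54, adjusted p = 0.054), TKO 3 (-0.39, adjusted p = 0.076), THC 1 (-0.54, adjusted p = 0.054) or THC 3 (-0.44, adjusted p = 0.052). Srebf1, which encodes the transcription factor SREBP1 of lipogenic genes (chromosome 11, 60199089 to 60222581), had 1896, 1410.0 and 1652 in TKO 1, 2 and 3, against 3669.7, 3844 and 2274 in THC 1, 2 and 3. All TKO libraries were lower, at 51.6% of THC (log2 change -0.95, SE 0.17, adjusted p = 0.0016), with -0.95 in the February pair and -0.95 in November. The counts cover the whole gene, so its alternative starts were not told apart.

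Thrsp, also called Spot14, is a small regulator of lipogenesis that is known as a marker of slowly dividing neural progenitors in the adult mouse hippocampus. It lies at chromosome 7, 97412938 to 97417730, and its promoter is shown above. It had 2634, 3916 and 2944 in TKO 1, 2 and 3, against 1695, 1707 and 1605 in THC 1, 2 and 3. The THC values lay close together and all TKO values lay above them, with TKO 2 highest, so that Thrsp rose 1.87-fold (log2 change 0.90, SE 0.14, adjusted p = 0.00064). Its paralogue Mid1ip1, of the list of other synthesis genes, moved the other way, with 1434 ± 203 in TKO and 2009 ± 98.2 in THC (SD, n = 3 each; log2 change -0.49, SE 0.12, adjusted p = 0.0084).

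Desaturases and elongases were lower where they changed. Of 7 genes, 2 fell, none rose and 5 were not called, which at 28.6% is near the 27.9% called over all genes tested. Scd1 and Scd2 are stearoyl-CoA desaturases, which make monounsaturated fatty acids. Scd1 (chromosome 19, 44394455 to 44407879) had 412, 319 and 391 in TKO 1, 2 and 3, against 689, 735 and 677 in THC 1, 2 and 3, and fell to 53.2% of THC (log2 change -0.91, SE 0.15, adjusted p = 0.00077). Scd2, the gene of the 37 with the highest normalized count before any correction for length, had 24226, 19038 and 19859 in TKO 1, 2 and 3, against 29764, 30339 and 25718 in THC 1, 2 and 3. Its groups did not overlap, and its log2 change of -0.45 (standard error 0.18, adjusted p = 0.079) did not pass. Elovl6, the elongase of saturated and monounsaturated chains (chromosome 3, 129532355 to 129638495), had 742, 807 and 739 in TKO 1, 2 and 3, against 1545, 1197 and 1259 in THC 1, 2 and 3. It was lower in every TKO library, at 57.5% of THC (log2 change -0.80, SE 0.13, adjusted p = 0.00082).

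The genes of polyunsaturated fatty acid synthesis were not called. Fads1 had 7412, 6483 and 6279.6 in the TKO libraries and 8514, 9100.0 and 7892 in the THC libraries, without overlap (log2 change -0.34, SE 0.14, adjusted p = 0.084). Fads2, its neighbour on chromosome 19, had 5107, 4364 and 4524 in the TKO libraries and 5025, 5117 and 4845 in the THC libraries, with TKO 1 inside the THC range (log2 change -0.10, SE 0.12, adjusted p = 0.59). Both encode front-end desaturases. The elongases Elovl2 and Elovl5 had overlapping groups, with 2391 ± 232 in TKO and 2234 ± 411 in THC for Elovl2 and 6543 ± 624 in TKO and 7437 ± 1707 in THC for Elovl5 (SD, n = 3 each). Their log2 changes were 0.11 (standard error 0.14, adjusted p = 0.61) and -0.16 (standard error 0.15, adjusted p = 0.46).

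Of the 2 fatty acid binding proteins, which carry fatty acids through the cytosol, Fabp7 rose and Fabp5 was not called. Fabp7, the brain lipid binding protein of radial glia, astrocytes and neural stem cells (chromosome 10, 57784881 to 57788450), had 6144, 9070.5 and 7561 in TKO 1, 2 and 3, against 3247, 2939.8 and 2866 in THC 1, 2 and 3. The THC values lay close together, every TKO value was above them, and TKO 2 was the highest. Fabp7 rose 2.49-fold (log2 change 1.31, SE 0.15, adjusted p = 5.5e-05), with 0.92 in the February pair and 1.51 in November. The summed astrocyte and quiescent stem cell markers were 150156 to 197353 in TKO and 174097 to 300968 in THC, but these markers did not move together. Of them 8 fell, 6 were not called and 1, Gfap, rose without overlap (log2 change 2.01, SE 0.23, adjusted p = 4.7e-05). How Fabp7 relates to them was not tested. Fabp5, a broadly expressed relative found in neural progenitors (chromosome 3, 10012548 to 10016607), had 5312, 6833 and 5812 in TKO 1, 2 and 3, against 4807, 5093 and 6177 in THC 1, 2 and 3. Its groups overlapped, and its log2 change was 0.16 (standard error 0.14, adjusted p = 0.43) with a 95% interval of -0.14 to 0.46.

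The acyl-CoA synthetases of the long-chain family, which activate fatty acids for all later use, held the largest fall among the 37 genes and the second largest rise. Acsl6, an isoform of brain that favours docosahexaenoic acid (chromosome 11, 54303798 to 54364756), had 2721, 1979.6 and 2255 in TKO 1, 2 and 3, against 9733, 8065 and 5383 in THC 1, 2 and 3. The THC range lay far above all TKO values, with TKO at 30.6% of THC (log2 change -1.71, SE 0.16, adjusted p = 1.2e-05). In THC its highest value was in THC 1 and its lowest in THC 3, as for the summed astrocyte and quiescent stem cell markers, which were at 300968, 248074 and 174097 in THC 1, 2 and 3. This order was not particular to Acsl6, and its source was not tested. Of the 37 genes, 18 were highest in THC 1 and 32 lowest in THC 3, against 36.6% and 35.4% of all genes tested. Without THC 3 the log2 change of Acsl6 was -1.89.

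Acsl3, a synthetase of the endoplasmic reticulum and lipid droplets (chromosome 1, 78657825 to 78707743), had 13079.9, 9622 and 11079 in TKO 1, 2 and 3, against 25180.4, 19131 and 12847 in THC 1, 2 and 3. Here THC 3 lay below TKO 1, so the groups overlapped, and the fall to 60.9% of THC (log2 change -0.72, SE 0.18, adjusted p = 0.012) was lost without TKO 1 (-0.60, adjusted p = 0.12), TKO 2 (-0.69, adjusted p = 0.054), THC 1 (-0.60, adjusted p = 0.11) or THC 2 (-0.59, adjusted p = 0.053). Exons of Utp14b on the same strand overlap 5.60% of those of Acsl3, and Utp14b averaged 838 in TKO and 808 in THC. Acsl1, a synthetase linked to oxidation in heart and liver, had 333, 220.3 and 256 in TKO 1, 2 and 3, against 482, 534 and 335 in THC 1, 2 and 3, with TKO 1 just under THC 3. It fell to 60.2% of THC (log2 change -0.73, SE 0.20, adjusted p = 0.015), and not without TKO 2 (-0.64, adjusted p = 0.065) or THC 2 (-0.51, adjusted p = 0.071).

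Acsl5 (chromosome 19, 55251938 to 55297720), whose product is found at mitochondria and the endoplasmic reticulum, had 585, 464 and 543 in TKO 1, 2 and 3, against 265, 234 and 172 in THC 1, 2 and 3. It rose in every TKO library, 2.39-fold (log2 change 1.26, SE 0.18, adjusted p = 0.00023), with 1.14 in the February pair and 1.32 in November. Exons of Zdhhc6 on the opposite strand overlap 8.31% of its exon length, and Zdhhc6 averaged 1840.0 in TKO and 1411 in THC, so reads of this overlap cannot be assigned with certainty. Acsl4, the isoform that favours arachidonic acid, had 402, 321 and 301 in the TKO libraries and 426, 241 and 353 in the THC libraries, which overlapped (log2 change 0.03, SE 0.18, adjusted p = 0.91, 95% interval -0.36 to 0.43).

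**Figure D3:**
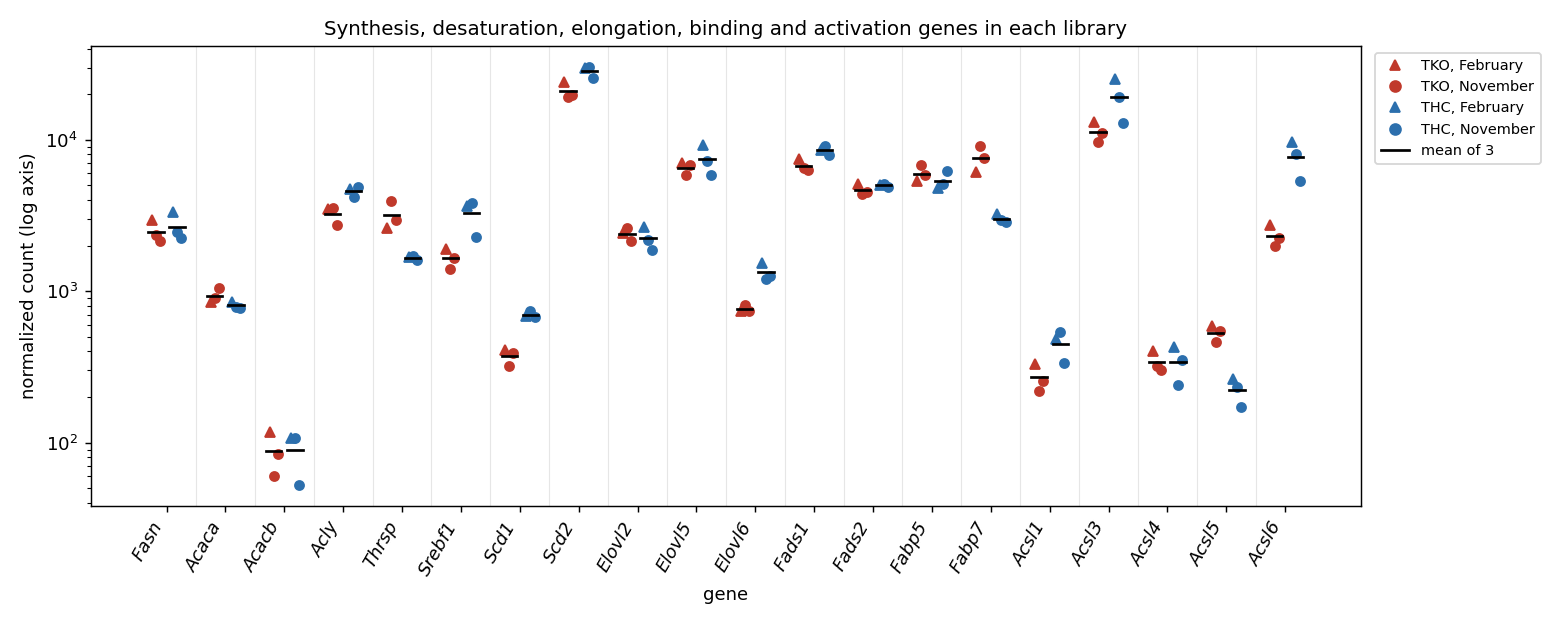
Normalized count of the 20 genes of synthesis, desaturation, elongation, binding and activation in each library, on a log axis, with TKO left of THC; triangles are February and circles November libraries, and bars are means of 3. Thrsp, Fabp7 and Acsl5 lie above the THC values in all 3 TKO libraries, Acsl6, Srebf1, Scd1 and Elovl6 lie below, and Fasn, Acaca, Fads2 and Acsl4 overlap.

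Set side by side, the classes differed in their medians and counts, which describe the genes chosen and carry no test. The 17 oxidation genes had a median log2 change of -0.43 (-0.44 in the February pair, -0.44 in November), with 9 lower and 1 higher. The 6 synthesis genes had a median of -0.05 (-0.10 in the February pair, -0.07 in November), with 2 lower and 1 higher. The 7 desaturation and elongation genes had a median of -0.34 (-0.30 in the February pair, -0.41 in November). The 5 synthetases had a median of -0.72 (-0.53 in the February pair, -0.60 in November), with 3 lower and 1 higher, and the 2 binding proteins had changes of 1.31 for Fabp7 and 0.16 for Fabp5. The share called was 58.8% in oxidation, 50% in synthesis, 28.6% in desaturation and elongation, 80% in synthetases and 50% in binding. Over all genes tested it was 27.9%, with 13.6% lower and 14.3% higher. Together the 37 genes took 0.576 to 0.650% of all normalized counts in TKO and 0.673 to 0.862% in THC.

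**Figure D4:**
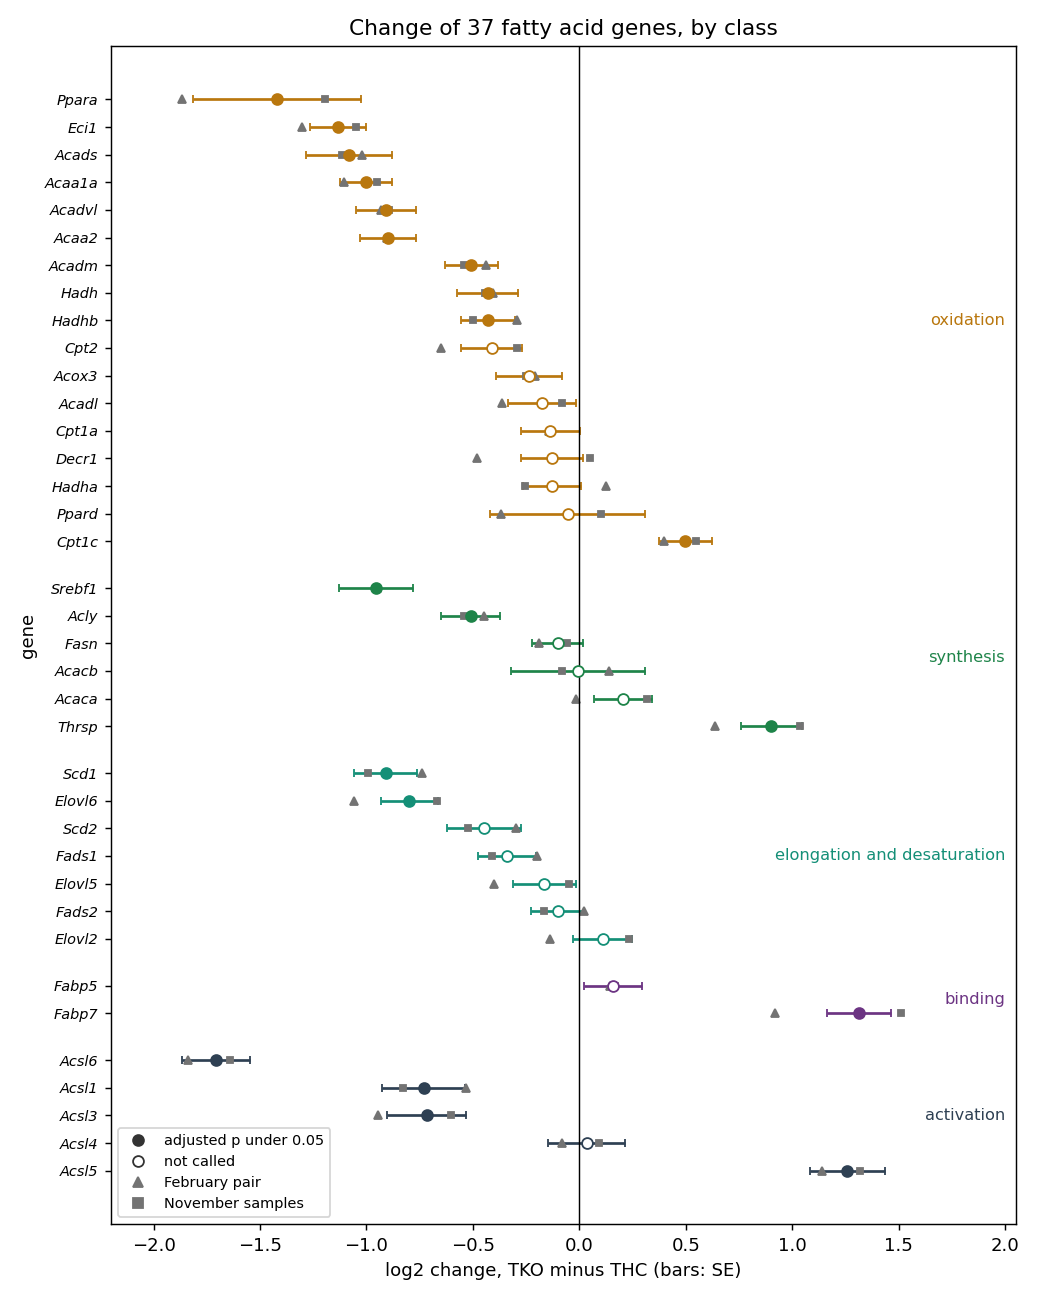
Log2 change (TKO minus THC) of each of the 37 genes with its standard error, grouped by class; filled circles have an adjusted p under 0.05 and open circles do not, and grey triangles and squares are the differences within the February pair and within the November samples. The called changes run from -1.71 for Acsl6 to 1.31 for Fabp7, and the grey symbols of every called gene lie on the side of 0 of its estimate.

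Every one of the 20 called genes had the same sign in the February pair and in the November samples; the estimate is a weighted mean of these differences, so for called genes this follows largely from their selection. In a model with a genotype by batch term, none of the 37 genes passed (0 of 37 at an adjusted p under 0.05 by limma, with 0 at an unadjusted p under 0.05, and 0 by edgeR), against 0.341% of all genes tested. The smallest adjusted p among them was 0.80 by limma and 0.78 by edgeR. This model has a lone sample per genotype in February, so it can show only large differences between batches.

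Ratios of related genes within a library do not depend on the scale factor, and 5 were compared, with log2 differences taken after adding 1 to each value. With 3 libraries against 3, the smallest p an exact test can give is 0.1. Fabp7 over Fabp5 was 1.16, 1.33 and 1.30 in the TKO libraries and 0.675, 0.577 and 0.464 in the THC libraries, a difference of 1.15 on the log2 scale without overlap (two-sided exact permutation p = 0.1, 0.17 after Benjamini-Hochberg adjustment over the 5 ratios). Fabp7 thus had more reads than Fabp5 in every TKO library and fewer in every THC library. Acsl6 over Acsl4 was 6.77, 6.16 and 7.48 in the TKO libraries and 22.8, 33.5 and 15.2 in the THC libraries, a log2 difference of -1.74 without overlap (exact p = 0.1). Scd1 over Scd2 was 0.0170, 0.0168 and 0.0197 in the TKO libraries and 0.0231, 0.0242 and 0.0263 in the THC libraries, also without overlap, with a log2 difference of -0.46 (exact p = 0.1). The 2 other ratios overlapped between the genotypes. Cpt1c over Cpt1a was 0.493, 0.849 and 0.782 in the TKO libraries and 0.339, 0.474 and 0.544 in the THC libraries (log2 difference 0.63, exact p = 0.2). Acacb over Acaca was 0.140, 0.0670 and 0.0799 in the TKO libraries and 0.126, 0.137 and 0.0679 in the THC libraries (log2 difference -0.21, exact p = 0.9).

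**Figure D5:**
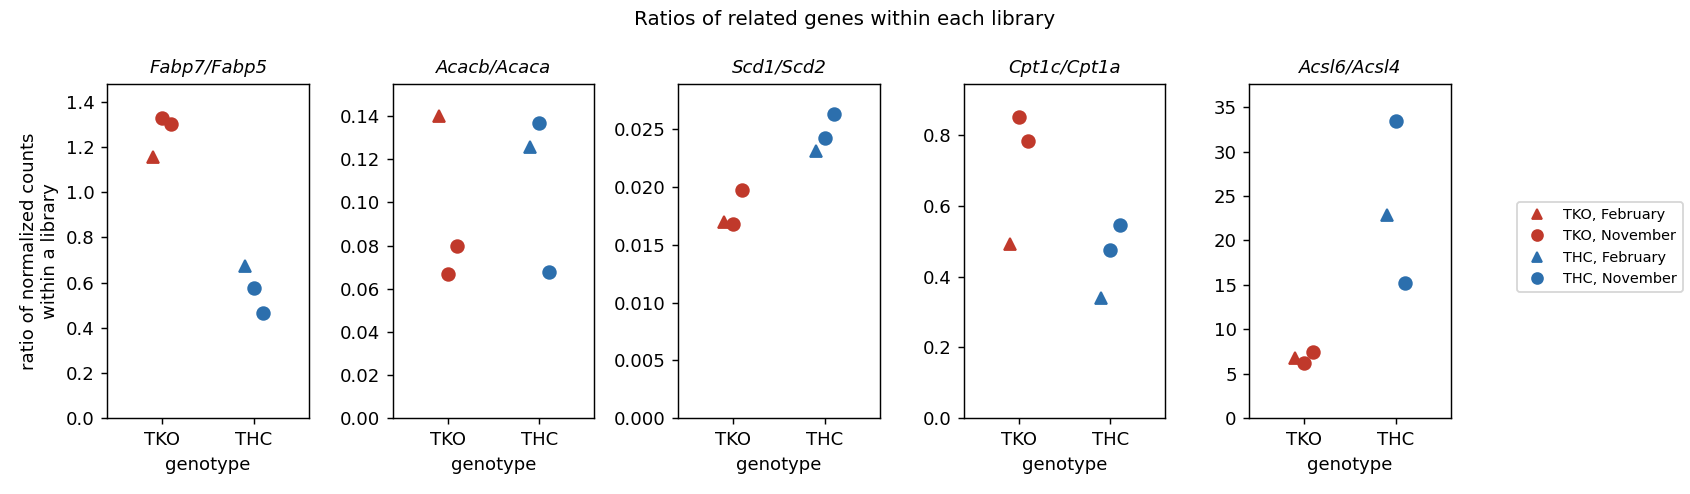
Ratio of the normalized counts of 5 pairs of related genes within each library, with TKO left and THC right, on linear axes that start at 0; triangles are February and circles November libraries. Fabp7/Fabp5 lies above 1 in the 3 TKO libraries and below 1 in the 3 THC libraries, Acsl6/Acsl4 and Scd1/Scd2 are lower in every TKO library, and the other 2 ratios overlap.

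Levels can be compared between genes only per length, and for this the mean normalized count was divided by the annotated exon length in kilobases. On that scale Fabp7 ranked first of the 37 genes in TKO at 6073 per kb, ahead of Scd2 at 3851 and Acsl3 at 2584. In THC the order was Scd2 at 5236, Acsl3 at 4373 and Fabp7 at 2414 per kb. The beta-oxidation gene of highest level per kb in THC was Acaa2, at 784 in TKO and 1472 in THC. The lowest levels were those of Ppard at 4.57 in TKO and 4.78 in THC, Ppara at 7.08 and 18.9, and Acacb at 9.08 and 9.25 per kb.

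The rest of the pathway was examined through 115 other genes, of which 102 passed the filter on low values. Of these, 36 fell, 3 rose and 63 were not called, so 38.2% were called, against 27.9% over all genes tested. Their median log2 change was -0.33 (-0.27 in the February pair, -0.29 in November). Without TKO 2 only 19 fell, and without THC 2 only 20. In the list of other oxidation genes, 11 of 32 tested fell, 1 rose and 20 were not called (37.5% called). Echs1, an enoyl-CoA hydratase gene, was not called, with TKO wholly above THC (log2 change 0.16, SE 0.12, adjusted p = 0.38). Acadsb, a dehydrogenase of short branched chains, fell to 53.0% (log2 change -0.92, SE 0.13, adjusted p = 0.00025).

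Of 14 other synthesis genes, 7 fell and none rose (50% called). Acss2 and Acss1, the cytosolic and mitochondrial acetyl-CoA synthetases, fell, with 567 ± 124 in TKO and 1443 ± 216 in THC for Acss2 and 2204 ± 334 in TKO and 4029.9 ± 1162 in THC for Acss1 (SD, n = 3 each). Their log2 changes were -1.36 (standard error 0.15, adjusted p = 3.4e-05) and -0.84 (standard error 0.13, adjusted p = 0.00056). Of 13 tested genes of other elongation and desaturation steps, 5 fell and 1 rose (46.2% called). Tecr, the reductase that ends each elongation cycle, had 4894 ± 429 in TKO and 9242 ± 832 in THC (SD, n = 3 each) and fell (log2 change -0.92, SE 0.13, adjusted p = 0.00034). Hacd4, a gene of the 3-hydroxyacyl-CoA dehydratase family, had 561, 444 and 447 in TKO 1, 2 and 3, against 94.2, 48.2 and 56.6 in THC 1, 2 and 3, and rose 7.46-fold without overlap (log2 change 2.90, SE 0.21, adjusted p = 2.7e-06).

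Of 12 tested genes of binding and uptake, 3 fell and 1 rose (33.3% called, against 27.9% over all genes tested). The transporter gene Slc27a1 had 2649.8, 1643 and 2141 in TKO 1, 2 and 3, against 8296, 7376 and 4266 in THC 1, 2 and 3 and fell to 32.9% of THC (log2 change -1.60, SE 0.19, adjusted p = 6.3e-05), while its relative Slc27a3 had 289 ± 37.3 in TKO and 161 ± 39.5 in THC (SD, n = 3 each) and rose (log2 change 0.87, SE 0.21, adjusted p = 0.0092). Of 11 tested genes of other acyl-CoA synthetases and thioesterases, 3 fell and none rose, a share of 27.3% that is near the 27.9% called over all genes tested. Acsbg1, a synthetase of astrocytes, had 3434, 2387 and 2347 in TKO 1, 2 and 3, against 11594, 8961 and 5802 in THC 1, 2 and 3 and fell to 31.7% of THC (log2 change -1.66, SE 0.16, adjusted p = 1.7e-05). Acot11, a thioesterase, fell as well (log2 change -0.94, SE 0.17, adjusted p = 0.0015), with overlapping groups. Of 20 genes of lipid storage and release, 7 fell and none rose, a share called of 35% against 27.9% over all genes tested. Among those that fell were Mgll, the monoglyceride lipase (log2 change -0.68, SE 0.14, adjusted p = 0.0038), and Gpam, which starts triglyceride synthesis (log2 change -0.65, SE 0.15, adjusted p = 0.0068).

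In the authors' deposited table, 18 of the 37 genes were lower and 4 higher at an adjusted p under 0.05, where 15.0% of the genes with an adjusted p in that table were called. That share is 4817 of 32018 genes, whereas limma called 4814 of the 17278 genes that passed the filter on low values. The 15.0% therefore cannot be set beside the 27.9% of limma, and all 37 genes passed that filter. Of the 37 genes, Cpt2 and Scd2 were called in the authors' deposited table and not by limma, with deposited log2 fold changes of -0.42 and -0.45 and adjusted p-values of 0.040 and 0.0053.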

How the data were processed

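RNA-seq of 6 sorted pools was analysed. Per the labels' protocols, at least 35 ng of total RNA (quality number at least 8.0) was amplified by SMART-Seq v4 and tagmented with Nextera XT, which keeps no strand. Per the submitters' processing notes, the tools were HISAT2, featureCounts from Subread and DESeq2, on GRCm38; the sources used here give no versions, annotation or multi-mapping rules. The authors' deposited table holds a normalized count signal per sample and, per the file headers, a log2 fold change and standard error, a Wald test score, a p-value and an adjusted p-value per gene, and a weight score. Every value of the 6 sample columns (100%) came to whole reads, within 0.001, when divided by its library's step (0.944 to 1.07). That gave the reads used by edgeR (4.0.16) and DESeq2 (1.42.0) as alternatives.

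The design assumed limma (3.58.1, R 4.3.3) for normalized values: log2(value + 1), intensity trend, batch plus genotype, genes with at least 10 in at least 3 samples, with 3 residual and 8.90 prior degrees of freedom. Benjamini-Hochberg adjustment ran over 17278 genes, with calls under 0.05. Log2 changes are TKO over THC on the log2(value + 1) scale, which understates changes of low genes; folds and percentages of THC are these changes on a linear scale, and 95% intervals are from the same model. Within February there is no replicate. Nothing states that pools shared no litter, so p-values measure the spread between these samples. The test was checked on simulated counts. Positions and exon lengths are from GENCODE M21 (GRCm38) by gene identifier, and 31 of 37 promoter windows carried 40 bases from the start that occur in a GENCODE transcript of their gene.

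The genes, lists, ratios and motifs were chosen with earlier results of these data known. The rule named all 37 genes, the targeted genes as label check and, per pathway list, the 2 called genes of smallest adjusted p, of which 1 is not reported here; Acaa1b and Mid1ip1 were named after their values were seen. The rule also allowed the 2 most abundant genes of each marker list, given here only as sums.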

Additional observations from a re-analysis of the deposited data

How the results depend on the processing

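Changes and counts of calls were recomputed in 17 other settings, the ratios in 9 and the interaction in 1. Of the 20 called fatty acid genes, 14 had the same call in all 17 (4 higher, 10 lower). None reversed, and 6 lost their call in at least 1 setting. Of the 17 settings, the call was lost in 9 for Hadh, 7 for Hadhb and 6 for Acsl3. It was lost in 5 for Acly, 4 for Ppara and 2 for Acsl1. Only settings that left out a sample are named above for these genes. Of the genes not called, 3 (Cpt2, Scd2 and Fads1) were called in another setting. In each setting 4 genes rose, and 11 to 18 fell. Leaving out 1 sample gave 11 to 16 lower fatty acid genes and, for the 115 other pathway genes, 19 to 32 lower and 3 to 4 higher; the cause was not tested. Without either February sample, the other one bears on the batch term alone, so the change equals that within November. With the replicate block in place of batch, 14 fatty acid genes fell and 4 rose, 24 other pathway genes fell, and 2147 genes rose and 1922 fell over the whole table, against 2469 and 2345 with batch. The replicate numbers were not taken as pairs, since deviations from genotype means correlated at 0.231, -0.106 and 0.141 for numbers 1, 2 and 3, and TKO 2 and TKO 3 did not both correlate best with their own number. With no batch term 13 fatty acid genes fell, and within November 12. TMM and total count scaling gave 17 lower and 4 higher each.

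Reversals touched only genes, ratios and interactions that were not called. Decr1 was at 0.048 within November and without replicate 1 of either genotype (-0.24 to 0.048 over samples left out). Ppard was at 0.10 in the same settings and 0.08 without THC 2 (-0.28 to 0.10). Acacb was at 0.15 without TKO 2 and 0.31 without THC 2 (-0.28 to 0.31), and the ratio Acacb/Acaca at 0.0029 without TKO 2 (-0.53 to 0.0029). Elovl2 was at -0.0060 without TKO 2 (-0.0060 to 0.23), Acsl4 at -0.0091 without TKO 2 and -0.14 without THC 2 (-0.14 to 0.17), and the batch interaction of Acaa2 at 0.0032 by edgeR. With 3 samples a genotype and 16 to 102 reads for Ppara, 27 to 45 for Ppard and 52 to 121 for Acacb, changes of these genes are the least certain. The paired sign-flip test of the ratios can reach no p under 0.25.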

Other observations

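The fatty acid genes varied more among the THC libraries than among the TKO libraries. The median coefficient of variation over the 37 genes was 11.5% in TKO and 16.5% in THC, and it was higher in THC for 27 of 37; over all genes tested the medians were 15.3% in TKO and 17.5% in THC, and it was higher in THC for 9520 of 17278. Among the TKO libraries, TKO 1 had the highest value for 22 of the 37 genes (38.0% of all genes tested) and TKO 2 the lowest for 19 (34.5% of all genes tested).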
